A study of Mus musculus with 23 samples.

Results

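The genes of the eukaryotic translation initiation factors and of the proteins that bind and control them were followed in mouse quadriceps muscle after corticosterone. The set was taken by symbol (Eif followed by a digit from 1 to 6). Of 66 such symbols in the table of counts, 10 pseudogenes, 4 genes on the sex chromosomes and 2 genes with 20 or fewer counts in more than 19 of the 23 mice were left out, which left 50 members among 55573 gene IDs. The genes left out as low were Eif4e1b, with at most 4 counts in a mouse, and Eif4ebp3, with at most 17. All 50 members were among the 13049 genes tested. Pseudogenes can share reads with the genes they derive from, and the levels of such members are uncertain to that extent. RNA was sequenced from C57Bl6 mice (as the labels spell the strain, C57BL/6J in the methods) that were 8 to 10 weeks old at the start, in 4 groups: 6 Male_VEH, 6 Male_CORT, 6 Female_VEH and 5 Female_CORT mice. Male_CORT and Female_CORT mice were given corticosterone for 14 days from an implanted slow-release pellet (50 mg, with 50 mg of cholesterol), and Male_VEH and Female_VEH mice carried a pellet of cholesterol alone. All mice were fasted for 5 hours before the muscle was taken. Mice are named by their sex and number (M1, F2).

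Translation initiation brings the small ribosomal subunit and the initiator tRNA to the start codon of an mRNA. The factor eIF2 carries the initiator tRNA and is recharged with GTP by the exchange factor eIF2B, eIF3 is the large scaffold on the small subunit, and eIF4E binds the mRNA cap together with the scaffold eIF4G and the helicase eIF4A. Initiation can be slowed at either step: eIF2 kinases phosphorylate eIF2 under stress, and eIF4E-binding proteins (4E-BPs) hold eIF4E away from eIF4G until the kinase mTORC1 phosphorylates them. Glucocorticoids are known for muscle wasting and for lowering muscle protein synthesis through this mTORC1 arm. The data are RNA levels and hold no measure of phosphorylation or of translation.

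Gene counts ranged from 20904150 to 21984477 per mouse. The unit of a level is CPM (counts on 1 gene per 1000000 counts of the library, its size adjusted by TMM), with 3 counts amounting to at most 0.166 CPM. Differences come from the quasi-likelihood test of edgeR in 1 model of the 4 groups, and "rose", "fell" or "called" below mean an adjusted p under 0.01 (Benjamini-Hochberg over all tested genes). Errors of log2 fold changes are standard errors (SE). The labels show no cage or litter, so the p-values measure the spread between these mice. Markers of skeletal muscle fibers (Acta1, Ckm, Myh4 and 5 more) summed to between 97300 CPM in F10 and 277000 CPM in M4. Adipocyte markers summed to between 219 CPM in M7 and 6900 CPM in F6, with 1 of 7 higher in treated females and 0 of 7 called in males, and they were highest in F2, F6 and F10 among the treated females. Hepatocyte markers reached 2330 CPM in M8 and 2290 CPM in F10, with 0 of 7 called in either sex. Erythrocyte markers rose in both sexes (4 of 5 in each), and 2 of 8 muscle fiber markers rose in males. Slow fiber markers differed widely between mice of the same group. They summed to 1.22 CPM (M9) to 3940 CPM (M5) in Male_VEH and 2.65 CPM (M8) to 1920 CPM (M6) in Male_CORT mice. In Female_VEH mice the sums ran from 10.9 CPM (F9) to 4560 CPM (F3), and in Female_CORT mice from 130 CPM (F4) to 2510 CPM (F2). Of 6 slow fiber and 6 macrophage markers, 0 were called in either sex, and of 5 tested markers of regenerating or denervated fibers 1 rose in males. The part of these markers in the results below was not tested. In bulk RNA, fewer cells of a type and less RNA per cell cannot be told apart.

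In males, the RNA of 23 of 50 members (46.0%) rose with corticosterone and that of 0 fell. Over all tested genes, 13.2% were higher and 13.1% were lower in this comparison. The median log2 fold change of the members was 0.27, with a range from -0.54 to 1.48, while the median of all tested genes was -0.02. A positive log2 fold change was found for 43 of the 50. For 20 members all 6 treated males lay above all 6 vehicle-treated males, and for 0 members all lay below. The 2 groups did not overlap for 40.0% of the members, against 21.9% of all tested genes. Most changes were small: Eif4ebp1 alone had a log2 fold change above 1, so that an added limit of 1 left 1 call. The count in males was 12 with no filter on low counts, 15 without M4, and 17 without M8 and F10, the mice with the most hepatocyte marker RNA.

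In females, 1 of 50 members rose (Eif1a) and 0 fell, against 7.4% of all tested genes higher and 6% lower. The median log2 fold change of the members was 0.01, with 26 of 50 above 0, and the median of all tested genes was 0.035. At an unadjusted p under 0.05, 11 of the 50 members passed in females, 6 of them higher. Of all tested genes, 38.6% passed at that level. DESeq2 called 2 of the 50 members, against 18.9% of the genes that it tested. With limma-voom it was 2 of the 50, against 18.8%. The female groups did not overlap for 2 members (4.0%, against 7.72% of all tested genes): Eif3d, with all treated females above, and Eif6, with all treated females below.

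**Figure D1:**
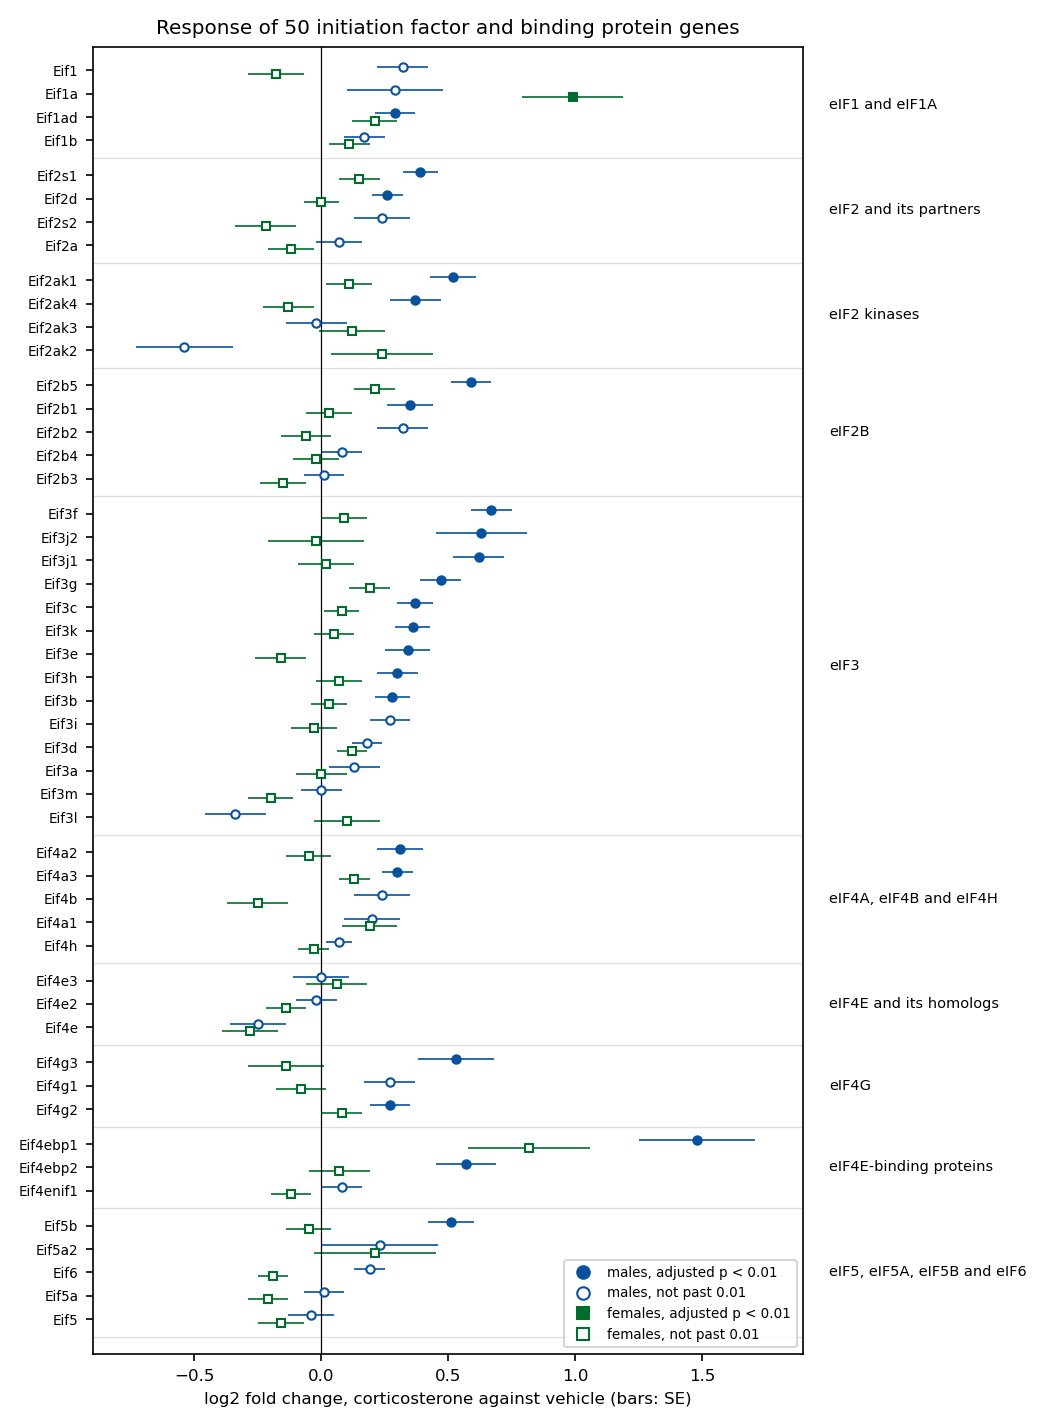
Log2 fold change of each of the 50 members, corticosterone against vehicle, in males (blue circles) and females (green squares), grouped by role, with bars of 1 SE and filled symbols for an adjusted p under 0.01 (edgeR). The blue symbols lie right of 0 for 43 members and 23 are filled, while the green symbols lie on both sides of 0 and 1, Eif1a, is filled.

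The shift of the members was seen in each treated male. The median over the 50 members of log2 CPM minus the vehicle mean of the same sex ran from 0.19 in M2 and M12 to 0.38 in M8, and from -0.06 to 0.02 in the vehicle-treated males. Treated and vehicle-treated males did not overlap in this measure. In treated females it was 0.07 in F2, F4 and F8, 0.01 in F6 and -0.16 in F10, and in vehicle-treated females it ran from -0.12 in F3 to 0.13 in F9. F2, F4, F6 and F8 lay within the range of the vehicle-treated females, and F10 lay below it.

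**Figure D2:**
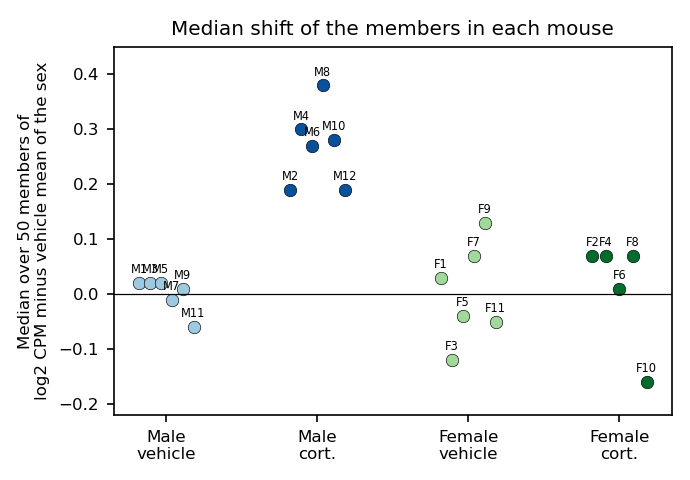
Median over the 50 members of log2 CPM minus the vehicle mean of the same sex, 1 labelled point per mouse. The 6 treated males sit between 0.19 and 0.38, above all vehicle-treated males, and the 5 treated females sit between -0.16 and 0.07.

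Whether the response differed between the sexes was tested by the interaction of sex and treatment. With edgeR, 0 of 50 members passed, against 0.69% of all tested genes. At an unadjusted p under 0.05, 29 of the 50 members passed, and 26 of these had the larger log2 fold change in males. Of all tested genes, 32.1% passed at that level. In all, 10 members had an adjusted p under 0.05 in edgeR, with the lowest for Eif3f (0.0113), Eif6 (0.015) and Eif5b (0.016). The share of all tested genes at this looser threshold is not given here, so whether the members stand out at it cannot be told. The interaction depended on the tool. DESeq2 called 7 of the 50 members, against 6.88% of all genes that it tested. With limma-voom it was 4 of the 50, against 5.31%. The members called by DESeq2 were Eif3f, Eif6, Eif5b, Eif3j1, Eif3e, Eif2ak4 and Eif1, and those called by limma-voom were Eif3f, Eif5b, Eif3j1 and Eif1. For Eif3f the adjusted p was 0.00021 in DESeq2 and 0.00329 in limma-voom.

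Between Male_VEH and Female_VEH mice 0 members were called by edgeR, against 0.958% of all tested genes. An unadjusted p under 0.05 was found for 2 of the 50 members, against 13.2% of all tested genes. DESeq2 and limma-voom called 0 as well, against 2.18% and 1.43% of the genes that they tested. Between the treated groups, 22 members were higher in Male_CORT than in Female_CORT mice and 2 were lower (Eif2ak2 and Eif1a), 48.0% in all, against 23.3% of all tested genes called. These mice are the same as in the comparisons with vehicle above. Without F10 and M8 the count was 11, and without F2, F6 and F10, which leaves 2 treated females, it was 3 (Eif4ebp2, Eif6 and Eif3f). The call of Eif1a was lost when F2, F6 or F10 alone was left out (log2 differences of -0.73, -0.61 and -0.71, against -0.82 with all mice), and without all 3 its sign turned (0.14).

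The DNA before the start sites of 4 members that rose in males is shown because motifs of stress and growth control are searched there. RefSeq start sites (GRCm38.p6) were matched for 40 of the 50 members by symbol, with 53 windows of 300 bases (250 before and 50 from the start). Eif1a, Eif2b3, Eif3e, Eif3h, Eif3i, Eif3j2, Eif4e3, Eif4ebp1, Eif4g2 and Eif6 had no window, so no motif was searched for them. Eif3f and Eif3k carry the E-box CACGTG, and Eif2b5 and Eif3j1 do not. The 4 stretches run 5′ to 3′ on the gene's strand, from 150 bases before the start to 11 bases from it, and the capitals mark CACGTG. They lie at chr7:108934265-108934425 (plus strand), chr7:28981878-28982038 (minus strand), chr16:20498667-20498827 (plus strand) and chr2:122028430-122028590 (plus strand).
Eif3f: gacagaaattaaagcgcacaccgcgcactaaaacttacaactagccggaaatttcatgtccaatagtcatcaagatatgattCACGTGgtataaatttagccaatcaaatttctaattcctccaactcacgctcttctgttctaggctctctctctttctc
Eif3k: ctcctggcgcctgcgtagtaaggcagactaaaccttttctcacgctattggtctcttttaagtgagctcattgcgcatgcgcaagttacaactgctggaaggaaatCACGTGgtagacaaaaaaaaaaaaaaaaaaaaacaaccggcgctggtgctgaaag
Eif2b5: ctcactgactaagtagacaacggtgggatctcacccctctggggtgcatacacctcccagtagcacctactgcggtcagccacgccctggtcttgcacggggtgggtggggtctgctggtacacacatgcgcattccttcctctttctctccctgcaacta
Eif3j1: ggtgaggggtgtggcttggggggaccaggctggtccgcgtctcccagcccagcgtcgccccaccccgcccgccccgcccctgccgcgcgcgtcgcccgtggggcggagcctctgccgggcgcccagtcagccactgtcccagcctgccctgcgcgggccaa
Searched on both strands, CACGTG was found in 12 of the 53 member windows (22.6%) and in 7.15% of 32851 windows of the same length from all genes. It begins 68 bases before the start in Eif3f and 44 bases before it in Eif3k. Of the 18 members that rose in males and have a window, 2 held it, and so did 8 of the other 22. The windows with it belong to Eif1b, Eif3a, Eif3f, Eif3k, Eif4a1, Eif4e, Eif4g1, Eif4h, Eif5a and Eif5a2. The consensus glucocorticoid response element was in 0 member windows and 0.475% of all windows. TGATGNAA, the element read by ATF4, was in 0 member windows and 3.97% of all windows. A C at the start followed by at least 4 pyrimidines, the letters of a terminal oligopyrimidine mRNA, was found in 1 member window, that of Eif3f with 11 pyrimidines in a row, and in 2.51% of all windows. Motifs were matched as letters, and binding was not measured.

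The cap-binding step held the largest change of the family, in its inhibitors. Of 3 members in the group of eIF4E-binding proteins, 2 rose in males and 0 in females. Eif4ebp1 (ENSMUSG00000031490, chr8:27260329-27276674, plus strand) encodes 4E-BP1, the mTORC1 substrate that blocks eIF4E. Vehicle-treated males ran from 39.9 CPM (M7) through a median of 59.4 CPM to 83.9 CPM (M5). Treated males ran from 101 CPM (M2) through 164 CPM to 260 CPM (M10). The male groups did not overlap, and the treated males were also the most variable group, with an SD of 61.7 CPM (n = 6) against 15.5 CPM (n = 6) with vehicle. Its log2 fold change in males was 1.48 ± 0.23 (2.8-fold, edgeR adjusted p = 4.42e-05). With vehicle, females ran from 35.4 CPM (F7) through 48.4 CPM to 58.6 CPM (F9). Female_CORT mice stood at 93.2 CPM (F2), 77.4 CPM (F4), 121 CPM (F6), 47.8 CPM (F8) and 76.5 CPM (F10). Only F8 among the treated females lay within the vehicle range. The female log2 fold change of 0.82 ± 0.24 missed the threshold (edgeR adjusted p = 0.0155), and the difference between the sexes was 0.66 ± 0.33 (edgeR interaction, adjusted p = 0.175).

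Eif4ebp2 (chr10:61428491-61452661, minus strand) encodes the related 4E-BP2. In length-normalised level it was the more abundant of the 2 in vehicle-treated males, at 56.1 CPM per kb of exon, and it overlaps the annotated gene Gm48086 on its strand. Male_VEH mice ran from 286 CPM (M3) through 321 CPM to 391 CPM (M9), and Male_CORT mice from 399 CPM (M10) through 472 CPM to 570 CPM (M2). The ranges met closely and did not overlap. Its log2 fold change was 0.57 ± 0.12 in males (edgeR adjusted p = 0.000563). Vehicle-treated females ran from 216 CPM (F5) through 248 CPM to 321 CPM (F9), and Female_CORT mice stood at 331 CPM (F2), 246 CPM (F4), 285 CPM (F6), 269 CPM (F8) and 212 CPM (F10). The female groups overlapped almost entirely, with a log2 fold change of 0.07 ± 0.12. Treated males had more Eif4ebp2 than treated females (log2 difference 0.84 ± 0.12, edgeR adjusted p = 8.19e-05), and none of the 32 alternatives tried ended this call, as for Eif3f and Eif6. Eif4enif1, the eIF4E transporter, had log2 fold changes of 0.08 ± 0.08 and -0.12 ± 0.08 in males and females, neither past the threshold.

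Eif4e itself, the cap-binding protein, did not pass the test in either sex. It ran from 90.5 CPM (M11) through 104 CPM to 131 CPM (M5) in Male_VEH mice and from 84.3 CPM (M6) through 89 CPM to 99.5 CPM (M2) in Male_CORT mice. All 6 treated males lay below the vehicle mean, and the ranges overlapped. In Female_VEH mice it ran from 79.2 CPM (F3) through 99 CPM to 113 CPM (F1), and Female_CORT mice stood at 82.8 CPM (F2), 77.4 CPM (F4), 63.6 CPM (F6), 101 CPM (F8) and 75.5 CPM (F10). Its log2 fold changes were -0.25 ± 0.11 in males (edgeR adjusted p = 0.0704) and -0.28 ± 0.11 in females (edgeR adjusted p = 0.0695). The homologs Eif4e2 and Eif4e3 had log2 fold changes from -0.14 to 0.06 in the 2 sexes and were not called.

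The scaffold and helicase genes of the cap complex rose in part in males. Of the 3 eIF4G genes, Eif4g3 (log2 fold change 0.53 ± 0.15) and Eif4g2 (0.27 ± 0.08), whose product is a homolog that lacks the eIF4E site, rose, and their male groups did not overlap. The call of Eif4g2 was lost in 17 of 33 alternatives and that of Eif4g3 in 9. Eif4g1, the main scaffold, had a log2 fold change of 0.27 ± 0.10 (edgeR adjusted p = 0.0299). Among 5 genes of the eIF4A helicases and their cofactors, Eif4a3, an RNA helicase of the exon junction complex, and Eif4a2 rose. Eif4a3 ran from 25.8 CPM (M7) through 28.2 CPM to 31.3 CPM (M11) in Male_VEH mice and from 33.8 CPM (M12) through 34.9 CPM to 36.7 CPM (M6) in Male_CORT mice. These groups did not overlap, and its log2 fold change was 0.30 ± 0.06 (edgeR adjusted p = 0.000259). In females Eif4a3 ran from 27.4 CPM (F11) through 29.2 CPM to 31.1 CPM (F3) with vehicle and stood at 33.1 CPM (F2), 28.9 CPM (F4), 33.1 CPM (F6), 34 CPM (F8) and 30.7 CPM (F10) with corticosterone, which overlapped. Eif4a2, the helicase paralog that is abundant in muscle, had a log2 fold change of 0.31 ± 0.09 in males, lost in 12 of 33 alternatives, and -0.05 ± 0.09 in females. Eif4a1, Eif4b and Eif4h, the last 2 being cofactors of the helicase, were not called in either sex.

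**Figure D3:**
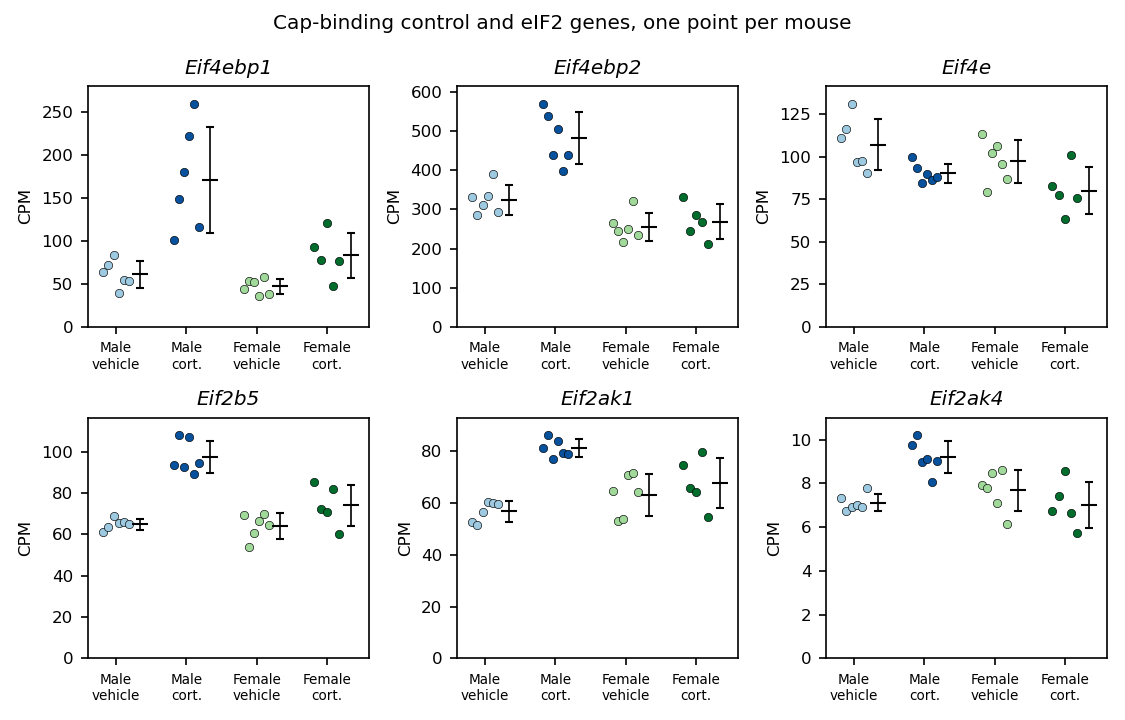
CPM of Eif4ebp1, Eif4ebp2, Eif4e, Eif2b5, Eif2ak1 and Eif2ak4 in each mouse (points), with the mean and SD of each group as a dash and bars and axes from 0. Treated males lie above all vehicle-treated males for each gene except Eif4e, and treated females overlap the vehicle-treated females for all 6 genes.

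The eIF3 complex, which is also the largest role, had the most called members. Of its 14 genes, 9 rose in males (64.3%, against 46.0% of all members and 13.2% of all tested genes) and 0 fell. The share was 66.7% for the eIF4G genes and for the eIF4E-binding proteins, with 3 genes each. The median log2 fold change of the eIF3 genes in males was 0.32. In females 0 of the 14 were called, with a median of 0.04. Those that rose were Eif3b, Eif3c, Eif3e, Eif3f, Eif3g, Eif3h, Eif3j1, Eif3j2 and Eif3k, which include the core subunits eIF3b and eIF3c and the RNA-binding subunit eIF3g. Male groups did not overlap for 7 of the 14.

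Eif3f (chr7:108934417-108942951, plus strand) had the lowest adjusted p of all members in males. Its product is a subunit that binds mTOR and S6 kinase and that the muscle ubiquitin ligase atrogin-1 targets in wasting. It ran from 155 CPM (M7) through 167 CPM to 176 CPM (M3) in Male_VEH mice and from 238 CPM (M2) through 257 CPM to 308 CPM (M4) in Male_CORT mice. The gap between the male groups was wider than the range of the vehicle-treated males. The log2 fold change was 0.67 ± 0.08 (edgeR adjusted p = 3.2e-06). The vehicle-treated females ranged from 146 CPM (F7) through 162 CPM to 179 CPM (F9), and Female_CORT mice stood at 185 CPM (F2), 178 CPM (F4), 163 CPM (F6), 196 CPM (F8) and 136 CPM (F10). F2 and F8 lay above and F10 below the vehicle-treated females, with a log2 fold change of 0.09 ± 0.09. F10 also had the lowest summed muscle fiber markers of all mice.

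Eif3j1 (chr2:122028546-122056598, plus strand) encodes a loosely held subunit near the mRNA entry channel. It ran from 79.8 CPM (M1) through 85.5 CPM to 98.8 CPM (M7) in Male_VEH mice and from 112 CPM (M12) through 130 CPM to 166 CPM (M8) in Male_CORT mice, without overlap. With vehicle, females ran from 79.4 CPM (F3) through 91.8 CPM to 114 CPM (F9), and Female_CORT mice stood at 98.3 CPM (F2), 113 CPM (F4), 87.7 CPM (F6), 93.2 CPM (F8) and 83.6 CPM (F10), all within the vehicle range. Its log2 fold change was 0.62 ± 0.10 in males (edgeR adjusted p = 6e-05) and 0.02 ± 0.11 in females. Its near-identical copy Eif3j2 had a log2 fold change of 0.63 ± 0.18 in males at 0.714 to 2.25 CPM, and reads could be split between the copies, so that its value is uncertain and its call was lost in 13 of 33 alternatives.

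Eif3g, at chr9:20894349-20898623 (minus strand), ran from 52 CPM (M9) through 53.8 CPM to 57.1 CPM (M3) with vehicle and from 64.2 CPM (M12) through 75.6 CPM to 88.2 CPM (M8) with corticosterone in males. Vehicle-treated females ran from 50.9 CPM (F7) through 53.9 CPM to 55.2 CPM (F9), and Female_CORT mice stood at 64.2 CPM (F2), 62.1 CPM (F4), 59.6 CPM (F6), 67.9 CPM (F8) and 49.8 CPM (F10). The male groups did not overlap, and 4 of the 5 treated females lay above all vehicle-treated females while F10 lay below them all. Log2 fold changes were 0.47 ± 0.08 in males (edgeR adjusted p = 5.55e-05) and 0.19 ± 0.08 in females (edgeR adjusted p = 0.0822). Eif3c, a core scaffold subunit, ran from 149 to 183 CPM (median 164) in Male_VEH mice and from 195 to 239 CPM (median 209) in Male_CORT mice. In females it ran from 155 to 180 CPM (median 166) with vehicle and stood at 183 CPM (F2), 192 CPM (F4), 169 CPM (F6), 180 CPM (F8) and 159 CPM (F10) with corticosterone. The male groups were apart and the female groups overlapped, with log2 fold changes of 0.37 ± 0.07 (edgeR adjusted p = 0.000271) and 0.08 ± 0.07.

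Eif3k, which encodes a peripheral subunit, ran from 73.1 to 87.1 CPM (median 80) in Male_VEH mice and from 95.8 to 111 CPM (median 101) in Male_CORT mice. The vehicle-treated females ranged from 74.1 to 90 CPM (median 81.3), and Female_CORT mice stood at 93.9 CPM (F2), 80.3 CPM (F4), 78.6 CPM (F6), 98.2 CPM (F8) and 72 CPM (F10). The male groups did not overlap (log2 fold change 0.36 ± 0.07, edgeR adjusted p = 0.000649), and the treated females were spread on both sides of the vehicle range (0.05 ± 0.08). Eif3b, another core scaffold subunit, ran from 88.1 to 104 CPM (median 91.7) in Male_VEH mice and from 96 to 126 CPM (median 118) in Male_CORT mice. The female values ran from 90.7 to 101 CPM (median 94.2) with vehicle and stood at 99.5 CPM (F2), 105 CPM (F4), 98.6 CPM (F6), 97.6 CPM (F8) and 85.5 CPM (F10) with corticosterone. Here both sexes overlapped, and the log2 fold changes were 0.28 ± 0.07 in males (edgeR adjusted p = 0.00295) and 0.03 ± 0.07 in females.

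Not all eIF3 genes rose. Eif3e rose in males (0.34 ± 0.09), with the call lost in 11 of 33 alternatives, and had a log2 fold change of -0.16 ± 0.10 in females. Eif3h rose in males (0.30 ± 0.08), and the call was lost in 8 of 33 alternatives. Eif3m had a log2 fold change of 0.00 ± 0.08 in males. Eif3a, Eif3d and Eif3i had log2 fold changes of 0.13, 0.18 and 0.27 in males and were not called in either sex. Eif3l had the lowest value of the eIF3 genes in males: it ran from 59.6 to 77.4 CPM in Male_VEH mice and from 33.2 CPM (M8) to 69.5 CPM (M2) in Male_CORT mice, and all 6 treated males lay below the vehicle mean. With a log2 fold change of -0.34 ± 0.12 it missed the threshold (edgeR adjusted p = 0.0329). M8, the lowest mouse for Eif3l, was the highest mouse for Eif3c, Eif3g, Eif3h, Eif3j1 and Eif3k, and it held the most hepatocyte marker RNA.

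**Figure D4:**
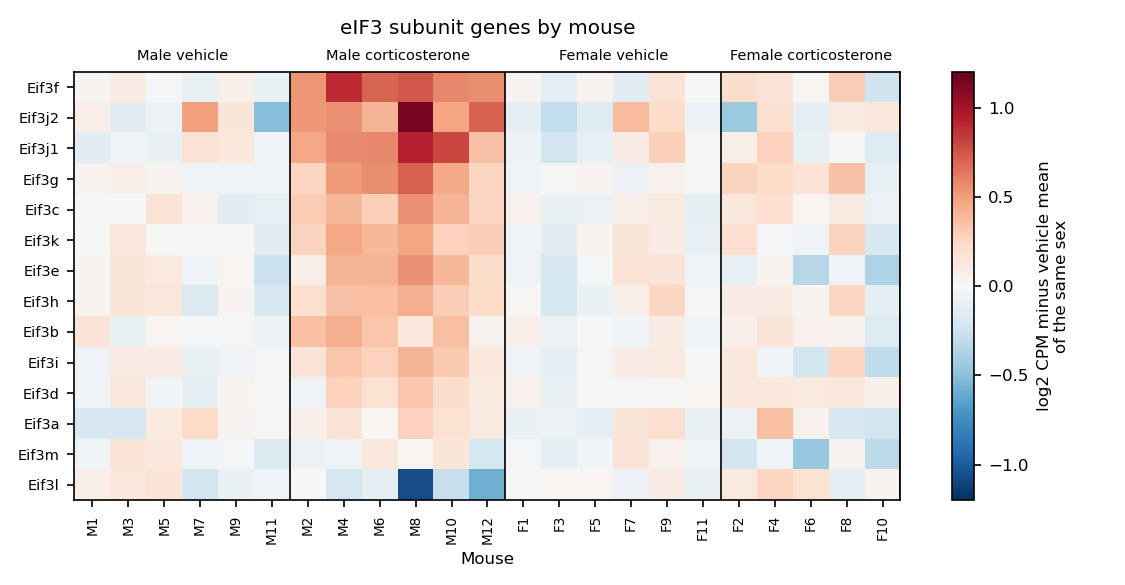
Log2 CPM of the 14 eIF3 genes (rows, ordered by the log2 fold change in males) in each of the 23 mice (columns), minus the vehicle mean of the same sex, in colour from blue (lower) to red (higher). Eif3f is red in all 6 treated males, Eif3l is blue in most of them, and no row is red in all 5 treated females except Eif3d at low strength.

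Genes of eIF2 and of its exchange factor eIF2B rose in part in males. Eif2s1, which encodes the alpha subunit that the stress kinases phosphorylate, ran from 46.6 CPM (M11) through 48.5 CPM to 52.1 CPM (M3) in Male_VEH mice and from 56.6 CPM (M2) through 61.1 CPM to 73.6 CPM (M10) in Male_CORT mice. The male groups were apart, and the log2 fold change was 0.39 ± 0.07 (edgeR adjusted p = 0.000352). With vehicle, females ran from 46.8 to 60.4 CPM (median 53.9) and Female_CORT mice stood at 65.3 CPM (F2), 57.2 CPM (F4), 56.5 CPM (F6), 64.5 CPM (F8) and 56.1 CPM (F10). All 5 treated females lay above the vehicle mean, with a log2 fold change of 0.15 ± 0.08 that was not past the threshold. Eif2d, a factor of non-canonical initiation and recycling, ran from 27.3 to 30.5 CPM (median 29.5) in Male_VEH mice and from 32.3 to 39.3 CPM (median 34.9) in Male_CORT mice, without overlap (0.26 ± 0.06, edgeR adjusted p = 0.002). In females it ran from 24.8 to 29.4 CPM (median 26.6) with vehicle and stood at 27 CPM (F2), 28.5 CPM (F4), 24.3 CPM (F6), 29.3 CPM (F8) and 25.2 CPM (F10) with corticosterone, with a log2 fold change of 0.00 ± 0.07. Eif2s2, the beta subunit, and Eif2a, an alternative carrier of initiator tRNA, were not called in either sex.

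Of the 5 eIF2B genes, Eif2b5 and Eif2b1 rose in males. Eif2b5 (chr16:20498817-20509323, plus strand) encodes the catalytic epsilon subunit. It ran from 61 CPM (M1) through 65.4 CPM to 69.1 CPM (M5) in Male_VEH mice and from 89.5 CPM (M10) through 94 CPM to 108 CPM (M4) in Male_CORT mice. The gap between these groups was again wider than the vehicle range, and the log2 fold change was 0.59 ± 0.08 (edgeR adjusted p = 8.36e-06). The female values ran from 53.7 CPM (F3) through 65.5 CPM to 70.1 CPM (F9) with vehicle and stood at 85.3 CPM (F2), 72.2 CPM (F4), 71 CPM (F6), 82.1 CPM (F8) and 60.4 CPM (F10) with corticosterone. All treated females but F10 lay above the vehicle range, with a log2 fold change of 0.21 ± 0.08 (edgeR adjusted p = 0.0662). Eif2b1, the regulatory alpha subunit, ran from 40.8 to 47 CPM (median 44.3) in Male_VEH mice and from 48.2 to 63.1 CPM (median 58.1) in Male_CORT mice, with a log2 fold change of 0.35 ± 0.09 (edgeR adjusted p = 0.00252). Vehicle-treated females ran from 36.3 to 54.3 CPM (median 45.3) and Female_CORT mice stood at 46.7 CPM (F2), 47.1 CPM (F4), 45.4 CPM (F6), 52 CPM (F8) and 40.5 CPM (F10), all within the vehicle range (0.03 ± 0.09). Eif2b2, Eif2b3 and Eif2b4 had log2 fold changes of 0.32, 0.01 and 0.08 in males and were not called in either sex.

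Of the 4 kinases of eIF2, Eif2ak1 and Eif2ak4 rose in males and Eif2ak2 and Eif2ak3 did not pass. Eif2ak1, the heme-regulated kinase HRI, ran from 51.4 CPM (M3) through 58.1 CPM to 60.6 CPM (M7) in Male_VEH mice and from 77 CPM (M6) through 80.4 CPM to 86.2 CPM (M4) in Male_CORT mice. The male groups were apart, and the log2 fold change was 0.52 ± 0.09 (edgeR adjusted p = 9.2e-05). In females it ran from 53 CPM (F3) through 64.5 CPM to 71.8 CPM (F9) with vehicle and stood at 74.9 CPM (F2), 65.9 CPM (F4), 64.3 CPM (F6), 79.6 CPM (F8) and 54.8 CPM (F10) with corticosterone, which overlapped (0.11 ± 0.09). Of the 5 erythrocyte markers (globin genes and Alas2), 4 rose in each sex, and whether they bear on the level of Eif2ak1 was not tested.

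Eif2ak4, the amino acid sensor GCN2, ran from 6.74 to 7.81 CPM (median 6.97) in Male_VEH mice and from 8.07 to 10.2 CPM (median 9.08) in Male_CORT mice. The male groups did not overlap (0.37 ± 0.10, edgeR adjusted p = 0.00449), and the call was lost in 6 of 33 alternatives. The vehicle-treated females ranged from 6.13 to 8.6 CPM (median 7.88) and Female_CORT mice stood at 6.73 CPM (F2), 7.42 CPM (F4), 8.57 CPM (F6), 6.64 CPM (F8) and 5.72 CPM (F10). These overlapped, with a log2 fold change of -0.13 ± 0.10. Eif2ak3, the endoplasmic reticulum stress kinase PERK, ran from 5.02 to 7.36 CPM (median 5.59) in Male_VEH mice and from 4.72 to 6.25 CPM (median 5.73) in Male_CORT mice. The female values ran from 5.37 to 8.28 CPM (median 6.73) with vehicle and stood at 7.59 CPM (F2), 5.49 CPM (F4), 8.69 CPM (F6), 6.74 CPM (F8) and 8.19 CPM (F10) with corticosterone. Its groups overlapped in both sexes, with log2 fold changes of -0.02 ± 0.12 and 0.12 ± 0.13. Eif2ak2, the double-stranded RNA kinase PKR and an interferon-induced gene, ran from 5.63 to 8.39 CPM in Male_VEH mice and from 2.87 to 6.39 CPM in Male_CORT mice. All 6 treated males lay below the vehicle mean, and the log2 fold change of -0.54 ± 0.19 missed the threshold (edgeR adjusted p = 0.0285). In treated females it was 9.46 CPM (F2), 11.3 CPM (F4), 11.9 CPM (F6), 4.53 CPM (F8) and 11.7 CPM (F10), so that 4 of 5 lay above all vehicle-treated females (7.04 to 8.96 CPM) and F8 lay below them. Treated males had less Eif2ak2 than treated females (log2 difference -1.07 ± 0.20, edgeR adjusted p = 0.000491), a call that ended without F2, F6 and F10 (-0.74).

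Among the factors that scan and join, Eif5b, the GTPase that brings the large ribosomal subunit, rose in males. It ran from 104 CPM (M11) through 112 CPM to 124 CPM (M7) in Male_VEH mice and from 136 CPM (M12) through 163 CPM to 184 CPM (M8) in Male_CORT mice, without overlap (0.51 ± 0.09, edgeR adjusted p = 0.000117). In females it ran from 98.5 CPM (F3) through 111 CPM to 132 CPM (F9) with vehicle and stood at 117 CPM (F2), 122 CPM (F4), 102 CPM (F6), 119 CPM (F8) and 94.1 CPM (F10) with corticosterone. F10 was the single treated female outside the vehicle range, and the log2 fold change was -0.05 ± 0.09. Eif5, the GTPase-activating partner of eIF2, and the elongation-linked factors Eif5a and Eif5a2 were not called in either sex. Eif1, which guards start codon choice, missed the threshold in males (0.32 ± 0.10, edgeR adjusted p = 0.0147). Eif1ad, named for an eIF1A-like domain, rose in males (0.29 ± 0.08), with the call lost in 14 of 33 alternatives, and Eif1b did not pass in either sex.

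Eif6, which keeps the large ribosomal subunit from joining too early, had log2 fold changes of opposite sign in the sexes. It ran from 28.7 CPM (M7) through 30.9 CPM to 32.7 CPM (M1) in Male_VEH mice and from 31.4 CPM (M12) through 35.6 CPM to 40 CPM (M6) in Male_CORT mice, and all 6 treated males lay above the vehicle mean. The female values ran from 27.3 CPM (F5) through 28.5 CPM to 31.4 CPM (F11) with vehicle and stood at 26.3 CPM (F2), 23.8 CPM (F4), 26.8 CPM (F6), 24.3 CPM (F8) and 24.9 CPM (F10) with corticosterone. All 5 treated females lay below all 6 vehicle-treated females. Neither change passed 0.01 in edgeR (log2 fold change 0.19 ± 0.06, adjusted p = 0.0139 in males, and -0.19 ± 0.06, adjusted p = 0.0307 in females). The paper, which used DESeq2 and an adjusted p of 0.01, lists Eif6 as regulated in both sexes, down in females and up in males. The difference between the sexes was 0.39 ± 0.09 (edgeR interaction, adjusted p = 0.015).

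Eif1a, an eIF1A gene with a near-identical copy on the X chromosome, was the 1 member that rose in females, and the rise lay in 3 mice. With vehicle, females ran from 12.8 CPM (F3) through 14.4 CPM to 16.9 CPM (F7). Female_CORT mice stood at 36.4 CPM (F2), 14.5 CPM (F4), 43.4 CPM (F6), 15.8 CPM (F8) and 35 CPM (F10). F2, F6 and F10 lay far above the vehicle range, and F4 and F8 lay within it. The same 3 mice had the most RNA of adipocyte markers: Adipoq stood at 366 CPM (F2), 626 CPM (F6) and 368 CPM (F10), against 126 CPM in F4 and 5.95 CPM in F8, and the order of the 5 mice by Plin1 put the same 3 on top (277, 543 and 278 CPM, against 70.2 and 2.85 CPM). Vehicle-treated females with Adipoq of up to 150 CPM (F3) had 12.8 to 16.9 CPM of Eif1a. The marker Cfd differed from these 2 markers in the vehicle-treated females. It stood at 361 CPM (F2), 767 CPM (F6) and 244 CPM (F10), against 175 CPM in F4 and 7.23 CPM in F8. In vehicle-treated females Cfd reached 1110 CPM (F3) and 1200 CPM (F5), where Eif1a was 12.8 and 16.3 CPM. With all mice the log2 fold change was 0.99 ± 0.20 (edgeR adjusted p = 0.00119), and without F2, F6 and F10 it was 0.04, with 0 members called in females. In males Eif1a ran from 12.3 to 14.8 CPM (median 13.5) with vehicle and from 13.7 to 17.9 CPM (median 17) with corticosterone, a log2 fold change of 0.29 ± 0.19 that did not pass. Because reads could be shared with the copy, the level of Eif1a is uncertain.

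**Figure D5:**
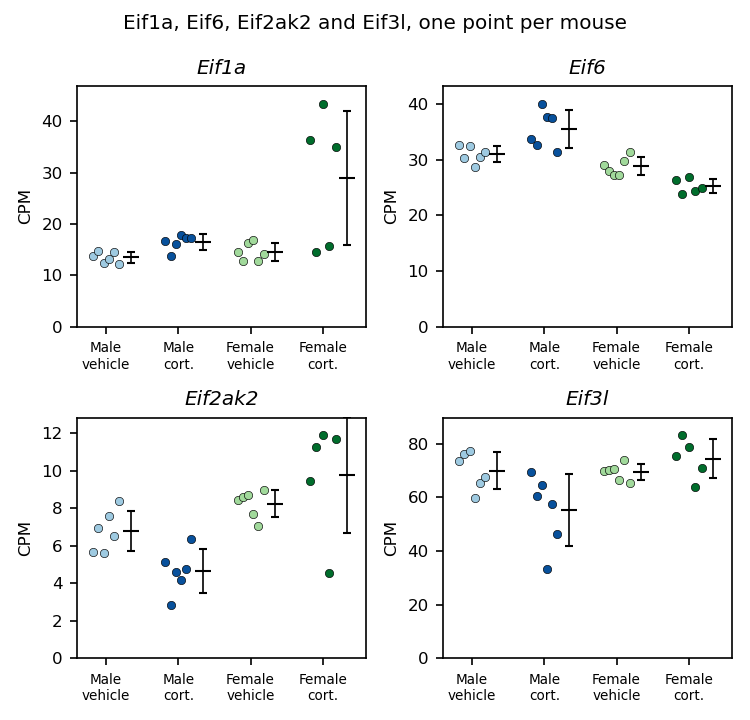
CPM of Eif1a, Eif6, Eif2ak2 and Eif3l in each mouse (points), with the mean and SD of each group as a dash and bars and axes from 0. Eif1a splits the treated females into 3 mice at 35 CPM or more and 2 at 15.8 CPM or less, and Eif6 lies below all vehicle-treated females in all 5 treated females.

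Levels within the family spread widely. Per kb of exon in Male_VEH mice, Eif1 was the highest member at 261 CPM per kb, followed by Eif5a (132), Eif3h (91.8), Eif4a2 (77) and Eif4g1 (76.3). The lowest were Eif5a2 (0.28 CPM per kb), Eif3j2 (0.438), Eif2ak3 (0.953) and Eif2ak4 (0.955). Members that rose in males were found from one end of this range to the other, with Eif4a2 and Eif3h near the top and Eif3j2 and Eif2ak4 near the bottom.

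Other genes of the same pathway gave a mixed picture. Of 48 listed genes 47 were tested. The other, Gcn1, was not matched by symbol in the annotation used, so its level was not looked at. In males 13 of the 47 rose (27.7%, against 13.2% of all tested genes) and 3 fell, against 13.1% of all tested genes. In females 5 of the 47 rose (10.6%, against 7.4%) and 1 fell, against 6%. The count in females changed with the mice and the fit: 2 of the 47 were called without F2 and also without F6, 3 without any 1 of F5, F7 and F9, 1 with each sex fitted alone, and 0 without F2, F6 and F10, which leaves 2 treated females. In the mTORC1 arm, Ddit4, an inhibitor of mTORC1 and a known glucocorticoid target, rose in both sexes, by a log2 fold change of 3.37 ± 0.55 in males and 2.24 ± 0.54 in females. Mtor rose as well (0.46 ± 0.07 and 0.26 ± 0.07), and so did Mknk2, a kinase of eIF4E (0.86 ± 0.13 and 0.75 ± 0.14). Akt1s1, the mTORC1 subunit PRAS40, rose in males (0.29 ± 0.09).

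Among 12 tested genes around eIF2 phosphorylation, Abcf1, which binds eIF2, rose in males (0.55 ± 0.07). Atf5 (-0.84 ± 0.17) and Ddit3 (-1.0 ± 0.28), transcription factors of the integrated stress response, fell in males, as did Nck1 (-0.29 ± 0.06), an adaptor of an eIF2 phosphatase. A second, short annotated gene of the name Ddit3 overlaps the first. Atf4, the main mediator of that response, had log2 fold changes of -0.02 ± 0.12 in males and -0.27 ± 0.13 in females and did not pass, and Trib3, one of its targets, rose in females (1.12 ± 0.27). Pabpc4, a poly(A)-binding protein, rose in males (0.90 ± 0.14), and Paip2b, a repressor of poly(A)-binding protein, did so too (0.38 ± 0.10).

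Of the recycling and scanning factors, Abce1 (0.30 ± 0.07) and the helicase Dhx29 (0.41 ± 0.08) rose in males, and Bzw2, a mimic of eIF5, fell in females (-0.62 ± 0.11). Of 10 elongation and release factors, 4 rose in males: Etf1 (0.92 ± 0.09), which recognises stop codons, Eef2k (0.77 ± 0.16), the kinase that inhibits eEF2, Eef1b2 (0.55 ± 0.11) and Eef2 (0.49 ± 0.11). Etf1 rose in females too (0.39 ± 0.09). The interaction of sex and treatment called 0 of the 47 with edgeR.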

How the data were processed

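RNA of quadriceps muscle from 23 mice was sequenced as 100-base read pairs from stranded libraries. The authors aligned the reads to mm10 with STAR 2.7.3a, counted them per gene and by strand with HTSeq 0.12.4 on Ensembl release 97, and deposited the raw counts with no normalization. Left out were 5 summary lines of unassigned reads (10.7% to 15.3% of a mouse's read pairs). GENCODE M21 (GRCm38) supplied symbols and positions and matched all but 179 gene IDs.

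Groups follow the sex and the treatment that the labels give. Tests were run with edgeR 4.0.16 under R 4.3.3 (TMM, quasi-likelihood test, 1 mean for each of the 4 groups). A gene was tested where 4 or more mice of a group had over 20 normalized counts (13049 genes), and p-values were adjusted over all of them with a threshold of 0.01. CPM values divided by the length of a gene's merged exons gave levels per kb. No 2 replicates agreed within sampling noise (lowest chi-square per degree of freedom 15), and normalization factors ran from 0.832 to 1.21. On simulated counts of 13049 genes, edgeR recovered 94% of genes changed by 4-fold and 75% of those changed by 2-fold in males. In females it recovered 90% and 69%. Among the responses of the members to corticosterone, only that of Eif4ebp1 in males was larger than 2-fold. Recovery of smaller changes is not given here.

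DESeq2 1.42.0, limma-voom (limma 3.58.1) and other filters, scalings and sets of mice served as alternatives. Leaving out F2, F6 and F10 was chosen after seeing the data. The members and the gene lists were chosen with earlier results of these data known. Every mouse's value or its group's range is given for the 16 members with the lowest adjusted p among those called and for Eif4ebp1, Eif4ebp2, Eif2ak3, Eif2ak4, Eif4e and Eif6. Whether the sexes were processed together is not given in the sources used here, so a batch and the sex cannot be told apart. Sequences came from RefSeq on GRCm38.p6.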

Additional observations from a re-analysis of the deposited data

Results flagged for a closer look

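Of 80 groups of mice looked at for a single mouse far from the others (20 members in 4 groups, where chance flags about 5% of groups), 1 had such a mouse: Eif2ak3 stood at 7.36 CPM in M11, and the other vehicle-treated males ran from 5.02 to 5.81 CPM. For Eif6, every treated male lay above the vehicle mean of males and every treated female lay below that of females, with a difference of 0.39 between the log2 fold changes (0.19 in males and -0.19 in females). The test of that difference gave an adjusted p of 0.015 with edgeR's interaction term, 0.000742 with DESeq2 and 0.0128 with limma-voom.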

How the results depend on the processing

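The count of 23 members in males became 12 with no filter on low counts, where 31922 genes were tested. It was 1 with an added log2FC limit of 1, and 15 to 26 when 1 mouse at a time was left out (15 without M4). It was 29 with DESeq2, 28 with limma-voom and 31 at an adjusted p under 0.05. With median-of-ratios size factors and with each sex fitted alone it was 25. The count of 1 in females became 2 with DESeq2 and with limma-voom, 3 at an adjusted p under 0.05, 0 with the added log2FC limit, with each sex fitted alone and without F2, F6 and F10, and 1 to 2 with 1 mouse left out (2 without F4 or F8). The count of 0 for the interaction became 7 with DESeq2, 4 with limma-voom, 1 with median-of-ratios size factors, 10 at an adjusted p under 0.05, and 0 to 5 with 1 mouse left out (5 without F8, 3 without F3 or F4). Between the treated groups 24 calls became 11 without F10 and M8, 3 without F2, F6 and F10, and 17 to 30 with 1 mouse left out, and Eif1a changed sign there without F2, F6 and F10 (0.14). Of the other translation genes, 1 was called in males with the added log2FC limit, and in females 3 with no filter, 11 at an adjusted p under 0.05, 2 with the added limit, 1 with each sex alone, 0 without F2, F6 and F10, and 2 to 8 with 1 mouse left out (2 without F2 or F6, 3 without F5, F7 or F9). The cause of these changes was not tested, beyond fewer mice or a stricter limit where the alternative itself brings them. Replicate numbers are shared between the sexes, not between treatments of 1 sex, so a replicate block could be fitted for comparisons between the sexes. Deviations from the group mean were correlated over the tested genes between same-numbered mice, with r over 0.1 in 7 of 11 pairs (range -0.377 to 0.477). Vehicle pairs ran from 0.085 (number 1) to 0.477 (number 7), and treated pairs from -0.377 (number 8) to 0.242 (number 4). Pairs with different numbers were not compared, so these values cannot show that same-numbered mice were more alike. Whether a shared number stands for a shared factor is not given in the labels and was not tested further. With the block the interaction called 0 members and the treated groups 20. No member's log2 fold change within a sex changed sign among those called.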
